A study of Homo sapiens with 6 samples.

Results

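The 10 MAGE genes described here were taken by symbol (MAGEA3, MAGEA4, MAGEA6, MAGEA12, MAGEC1, MAGEC2, MAGED1, MAGED2, MAGEF1 and MAGEH1) from a table of 19202 genes. They were measured by RNA sequencing in MHCC97H, a human hepatocellular carcinoma cell line. The control group held 3 libraries of cells labelled sensitive to sorafenib, a multikinase inhibitor used in liver cancer, and the resistant group held 3 libraries of cells of the same line labelled resistant to it. No transgene or other treatment is named for either group. The sources used here do not give how resistance was obtained, whether the resistant line was 1 clone, or whether drug was present at harvest. Nor do they say that replicates came from separate cultures, so the tests see only how these libraries vary, and that variation may be technical. The genes were chosen by symbol, with their levels and their differences between these same 2 groups already known. Levels, log2 fold changes (log2FC, resistant over control) and calls of the 10 genes are therefore a description of these libraries, not independent evidence, and no p-values are attached to them.

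MAGE proteins share a MAGE homology domain that binds RING-type ubiquitin ligases and alters what these ligases act on. The type I genes (MAGEA, MAGEB and MAGEC) lie on the X chromosome, are normally active mainly in male germ cells, are kept silent elsewhere in large part by DNA methylation of their promoters, and are re-expressed in many tumours including liver cancer, for which they are called cancer-testis genes. The type II genes (MAGED1, MAGED2, MAGEF1, MAGEH1 and others) are active in many healthy tissues.

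Several type I members are so alike that short reads can match more than one of them. The coding sequences of MAGEA3 and MAGEA6, 942 bases each without the stop codon in GENCODE 29, were 98.1% identical and differed at 18 positions. MAGEA12, of the same length, was 92.4% identical to MAGEA3 and 92.5% to MAGEA6. The 60-base stretch in which MAGEA3 and MAGEA6 differ most is shown as an example of where a read can tell them apart. It holds 4 of their 18 coding differences. It covers bases 573 to 632 counted from the start codon, and capitals mark the 6 positions at which the 3 genes are not all alike.
MAGEA3: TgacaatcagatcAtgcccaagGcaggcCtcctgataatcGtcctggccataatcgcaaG
MAGEA6: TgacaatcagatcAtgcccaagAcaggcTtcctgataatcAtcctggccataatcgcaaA
MAGEA12: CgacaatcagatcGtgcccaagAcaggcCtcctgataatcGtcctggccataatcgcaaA
The stretches lie on chromosome X of GRCh38, at chrX:152701405-152701464 (plus strand) for MAGEA3, chrX:152767019-152767078 (minus strand) for MAGEA6 and chrX:152736734-152736793 (plus strand) for MAGEA12, each within the single coding exon.

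The share of each transcript that cannot be told from another gene was counted with windows of fixed length. Of all 50-base windows of the MAGEA3 transcript 56.2% also occurred in a transcript of another gene, and 54.5% occurred in MAGEA6. At 150 bases 27.9% of the windows of either gene were still found in the other. For MAGEA12 the share was 8.76% at 50 bases, 0.178% at 75 bases and 0 at 100 bases. The plot of shared windows shows that MAGEC2 (0.0515% at 50 bases) and MAGED1 (0 at every length) were almost free of such windows. The sources used here give neither the read length nor the handling of reads with several matches. The division of counts between MAGEA3 and MAGEA6 is therefore uncertain, while that between MAGEA12 and the others is less so. The levels of MAGEA3 and MAGEA6 may also be too low beside other genes, if such reads were left out. They may be too high if such reads were counted for each matching gene.

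**Figure D1:**
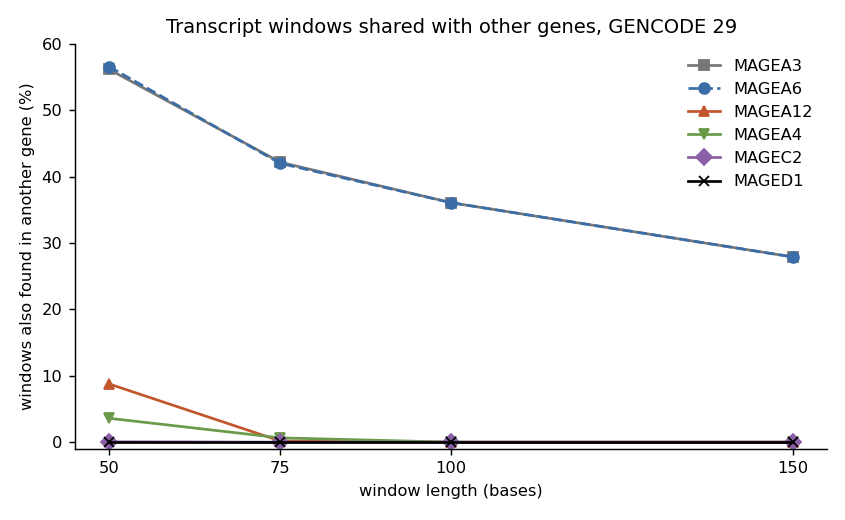
Share of transcript windows (vertical axis, percent) that also occur in a transcript of another gene, by window length in bases (horizontal axis), for 6 MAGE genes in GENCODE 29. MAGEA3 and MAGEA6 fall together from 56.2% and 56.6% to 27.9%, and the other 4 genes are at or near 0 from 75 bases on.

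Upstream sequences are shown because 2 of these genes share theirs. RefSeq promoter windows on GRCh38.p14 were matched for 9 of the 10 genes. The windows of MAGEA3 and MAGEA6, from 250 bases before the RefSeq start to 50 after it, were 100% identical over 300 bases. The first 192 of these bases, which lie upstream of the RefSeq and the GENCODE starts of both genes, are given as 1 run, with each CpG in capitals, since CpG is the site of DNA methylation. They lie at chrX:152698544-152698735 (plus strand) for MAGEA3 and chrX:152769748-152769939 (minus strand) for MAGEA6.
MAGEA3 and MAGEA6: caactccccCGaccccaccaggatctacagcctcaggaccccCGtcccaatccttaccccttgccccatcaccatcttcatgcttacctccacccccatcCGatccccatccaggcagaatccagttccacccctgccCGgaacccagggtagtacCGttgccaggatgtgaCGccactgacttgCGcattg
The corresponding 176 bases before MAGEA12 were 88.7% identical and held 4 CpG where the matching part of the MAGEA3 stretch held 6. This MAGEA12 stretch overlaps an exon of the gene CSAG1, described below. These stretches leave out bases next to the RefSeq start. The full 250 bases before it held 15 CpG for MAGEA3 and for MAGEA6, and 5 or 13 for MAGEA12, depending on the RefSeq start used. For MAGEC1 and MAGEC2 the 250 bases before the start are given, at chrX:141903644-141903893 (plus strand) and chrX:142205291-142205540 (minus strand). Over the 273 columns in which their windows could be aligned they were 76.2% identical.
MAGEC1: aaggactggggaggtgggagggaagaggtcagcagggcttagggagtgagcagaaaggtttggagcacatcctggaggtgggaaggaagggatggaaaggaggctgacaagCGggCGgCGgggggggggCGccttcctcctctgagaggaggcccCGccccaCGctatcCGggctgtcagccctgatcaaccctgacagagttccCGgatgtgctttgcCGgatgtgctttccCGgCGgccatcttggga
MAGEC2: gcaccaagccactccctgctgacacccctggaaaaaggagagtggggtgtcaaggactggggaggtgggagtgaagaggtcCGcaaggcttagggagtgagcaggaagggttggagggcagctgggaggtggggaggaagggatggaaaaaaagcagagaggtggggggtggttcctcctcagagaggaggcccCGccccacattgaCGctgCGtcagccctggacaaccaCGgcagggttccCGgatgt
The MAGEC1 stretch held 11 CpG and the MAGEC2 stretch 6, against a median of 11 over 27305 RefSeq promoters of the same length. The core of ETS factor sites, GGAA on either strand, occurred 2 times in the shared MAGEA3 and MAGEA6 stretch, 7 times in that of MAGEC1 and 6 times in that of MAGEC2. It is a common word, present in 92.8% of those promoters. Methylation and factor binding were not measured in these libraries.

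Library totals ran from 1913469 to 5345272 counts, and 63.6 to 69.1% of the non-zero counts were even. If each fragment entered as 2 counts, which is not known, the small counts given here stand for fewer fragments than counts. Levels are CPM, counts brought to a common depth by each library's total and its TMM factor (trimmed mean of M values), given as mean ± SD with n = 3 per group. The labelled cell type was checked against markers. The liver regulator HNF4A had 36.01 to 44.9 CPM in every library. Of 7 tested hepatocyte markers 3 were called lower in resistant cells, beside 12.3% of all tested genes. They were ALB (albumin, log2 fold change -1.62, adjusted p = 0.00113 in edgeR), APOB (-1.47, 0.00108) and SERPINA1 (-1.44, 0.0268). The SERPINA1 call was lost in 4 of the fits that leave out 1 library. AFP, TF, FGB and HNF4A were not called (log2FC 0.24, -0.62, -0.75 and 0.05). The summed level of the 10 markers was 124 to 135 CPM in control and 75.9 to 97.1 CPM in resistant cells. Of the 10, APOA2 was at 0 in all libraries, and APOA1 and TTR had only 3 and 10 counts over all libraries. The 12 germ cell markers summed to 0 to 3.77 CPM in control and 1.08 to 5.17 CPM in resistant libraries, none was tested, and the sperm genes TNP1, PRM1 and ACR were at 0 throughout. Of the 14 immune, endothelial and stromal markers, 5 were tested and none was called. Their sum was 65.3 to 78.6 CPM in control. It was 40.1 and 38.6 CPM in resistant replicates 1 and 2, and 136 CPM in resistant replicate 3. In that library the endothelial genes VWF (26.2 CPM) and CDH5 (19.2 CPM) stood above the other 5 libraries. The endothelial gene PECAM1 did not, with 41.7 CPM there and 43.2, 30.9 and 24.9 CPM in control replicates 1, 2 and 3. PECAM1 had 6.496 and 12.9 CPM in resistant replicates 1 and 2. The part of these marker levels in the MAGE values was not tested. Differences without resistant replicate 3 are given below for the MAGE genes that were called. For MAGEA3, MAGEC1, MAGED2 and MAGEF1, not called with or without that library, the log2FC without it was -0.17, 0.49, -0.11 and -0.02.

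Of the 10 genes, 8 had enough counts for the fit across all genes. In edgeR's quasi-likelihood test 2 of them, MAGEC2 and MAGEA12, were called higher in resistant cells (11.7% of all 10804 tested genes were), and 2, MAGED1 and MAGEA6, were called lower (12.3% of all tested genes). MAGEA3, MAGEC1, MAGED2 and MAGEF1 were tested and not called. The median log2FC of the 8 was -0.13, with a range from -1.39 to 2.60, beside a median of -0.01 over all tested genes. Resistant and control libraries did not overlap for the same 4 called genes. Of all tested genes, 19.2% had every resistant library above every control library and 18.9% had the opposite. The list was chosen with this comparison in view, so nothing is read from these shares.

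**Figure D2:**
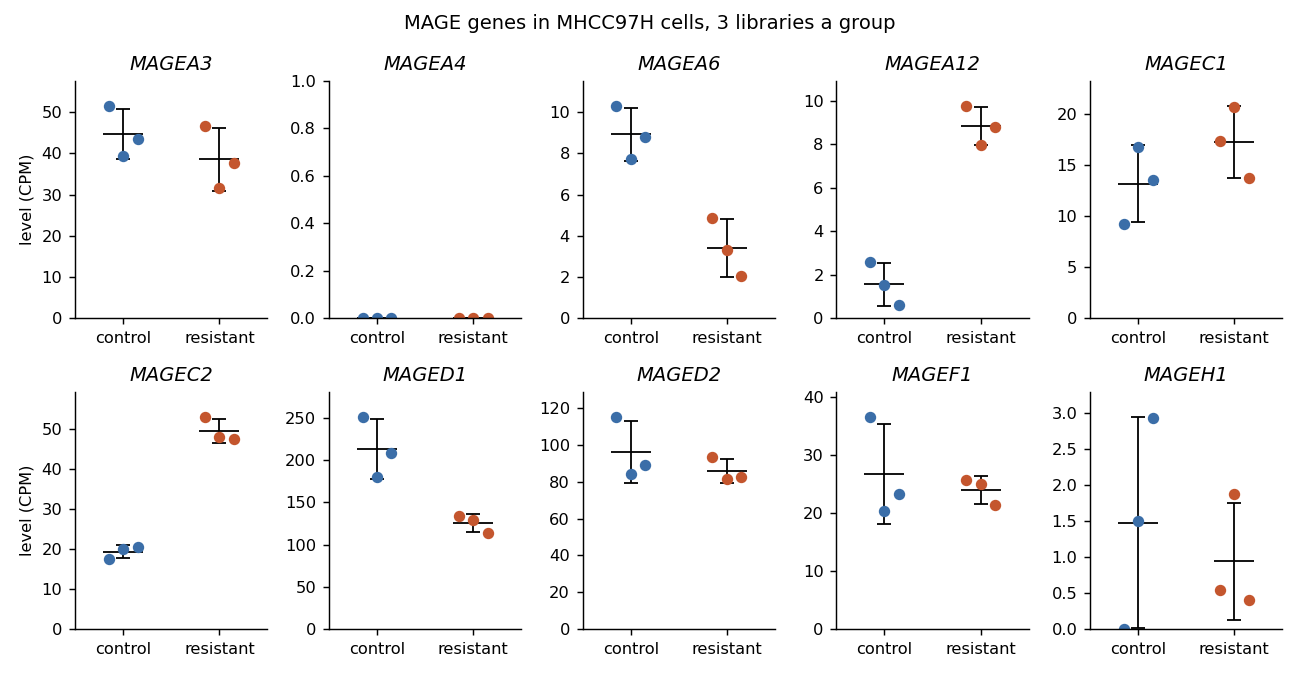
Level of each MAGE gene (vertical axis, CPM, a separate scale from 0 in each panel) in the 3 control and 3 resistant libraries. Points are libraries, and bars are the mean and SD; MAGEC2 and MAGEA12 are higher and MAGED1 and MAGEA6 lower in all 3 resistant libraries, and MAGEA4 is at 0.

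MAGEC2, a cancer-testis gene whose protein binds and stimulates the ubiquitin ligase TRIM28, was higher in resistant cells. It had 17.5, 19.96 and 20.5 CPM in control replicates 1, 2 and 3, and 53.1, 47.96 and 47.7 CPM in resistant replicates 1, 2 and 3. The groups were far apart, and within each the libraries differed by much less than the gap. Means were 19.3 ± 1.62 CPM (control) and 49.6 ± 3.03 CPM (resistant) (n = 3 each, SD), a 2.56-fold difference, from 210 and 633 counts. The log2FC was 1.34 (standard error, SE, 0.19), and it lay between 1.30 and 1.39 when any 1 library was left out. Without resistant replicate 3 it was 1.38. MAGEC2 (Entrez 51438) is on the minus strand of chromosome X, from 142202345 to 142205290, in 3 exons of which 1 is coding (GENCODE 29, GRCh38). Spans here are from that annotation, matched by symbol, since the sources used here do not name the build the authors counted on.

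MAGEC1, the neighbouring cancer-testis gene with a much longer coding sequence, 3426 bases against 1119 for MAGEC2, lies 293 kb away on the opposite strand. Its levels were 9.26, 16.8 and 13.5 CPM in control replicates 1 to 3 and 17.3, 20.7 and 13.7 CPM in resistant replicates 1 to 3. The groups overlapped, with control replicate 2 above resistant replicate 3. The log2FC was 0.34 (SE 0.28) and was not called, which does not show that the level was the same. The count of MAGEC2 per count of MAGEC1 was 1.53 ± 0.349 in control and 2.95 ± 0.587 in resistant libraries (SD, n = 3 each), with ranges of 1.19 to 1.89 and 2.32 to 3.48 that did not overlap.

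MAGEA12, one of the MAGEA genes at Xq28, was low in control cells, with 2.57, 1.51 and 0.587 CPM in replicates 1, 2 and 3, and had 9.74, 7.99 and 8.80 CPM in resistant replicates 1, 2 and 3. The lowest resistant library was above the highest control library, and the control value rests on 15 counts against 113. Mean levels were 1.55 ± 0.993 CPM (control) and 8.84 ± 0.877 CPM (resistant; SD, n = 3 each), 5.69-fold higher. The log2FC was 2.60 (SE 0.56), between 2.23 without control replicate 3 and 2.96 without control replicate 1, and 2.60 without resistant replicate 3. MAGEA12 (Entrez 4111) covers chromosome X from 152733779 to 152737669 on the plus strand, and exons of it overlap the annotated pseudogene CSAG4 on the same strand. The cancer-testis gene CSAG1 starts 44 bases from the MAGEA12 start and runs the other way, so that the 2 genes are head to head. CSAG1 had 0, 0 and 2 counts in control replicates 1, 2 and 3 and 10, 13 and 8 counts in resistant replicates 1, 2 and 3. It was too low to be tested, and was picked out after its values were seen.

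MAGEA6 and MAGEA3 encode near-identical proteins that also act with TRIM28, for which they are studied in the breakdown of the energy sensor AMPK. MAGEA6 had 10.3, 7.72 and 8.80 CPM in control replicates 1, 2 and 3 and 4.87, 3.29 and 2.05 CPM in resistant replicates 1, 2 and 3. All resistant libraries lay below all control libraries, on 91 and 42 counts. Control libraries averaged 8.94 ± 1.29 CPM and resistant libraries 3.40 ± 1.42 CPM (SD, n = 3 each), 2.63-fold lower, with a log2FC of -1.39 (SE 0.48). This was the least secure of the 4 calls. Leaving out 1 control library ended the call whichever it was (log2FC -1.28, -1.49 and -1.38 for control replicates 1, 2 and 3). So did leaving out resistant replicate 2 (-1.37) or 3 (-1.10), while the call held without resistant replicate 1 (-1.71). All 6 values were negative.

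MAGEA3, the more abundant of this pair, had 51.4, 39.4 and 43.4 CPM in control replicates 1, 2 and 3 and 46.6, 31.5 and 37.6 CPM in resistant replicates 1, 2 and 3. The groups overlapped, and the log2FC of -0.20 (SE 0.18) was not called. MAGEA3 (Entrez 4102) lies at 152698752 to 152702347 on the plus strand of chromosome X and MAGEA6 (Entrez 4105) at 152766136 to 152769747 on the minus strand, with MAGEA12 between them, 31.4 kb from MAGEA3 and 28.5 kb from MAGEA6.

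The summed level of the 3 genes overlapped between groups, while the division of their counts did not. The sum was 55.2 ± 8.12 CPM over control and 50.8 ± 9.41 CPM over resistant libraries (SD, n = 3 each). MAGEA12 held 4, 3.10 and 1.11% of the counts of the 3 genes in control replicates 1, 2 and 3, and 15.9, 18.7 and 18.1% in resistant replicates 1, 2 and 3. MAGEA6 held 16.0, 15.9 and 16.7% in control and 7.96, 7.69 and 4.22% in resistant replicates, in the same order. The count of MAGEA3 per count of MAGEA6 was thus 4.93 to 5.10 in control and 9.56 to 18.4 in resistant libraries. As a single row, all 12 MAGEA genes of the table summed had a log2FC of -0.16 (SE 0.16) and were not called. How far shared reads enter the MAGEA3 and MAGEA6 values was not tested.

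**Figure D3:**
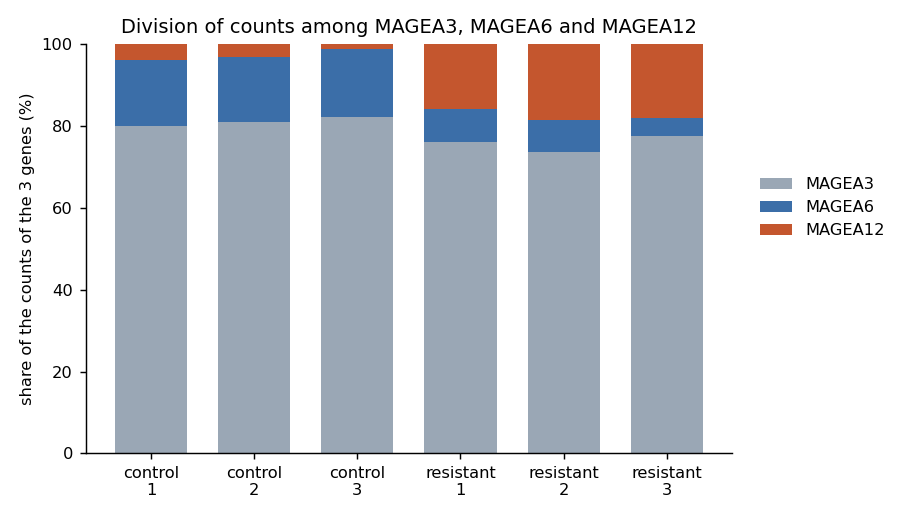
Percent of the summed counts of MAGEA3, MAGEA6 and MAGEA12 (vertical axis) that each gene holds in each of the 6 libraries (horizontal axis). MAGEA12 takes 1.11 to 4% in control and 15.9 to 18.7% in resistant libraries, and MAGEA6 15.9 to 16.7% and 4.22 to 7.96%.

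MAGEA4, a cancer-testis gene whose protein stabilises the DNA damage ligase RAD18, had 0 counts in all 6 libraries. A count of 0 allows a level of up to 3 counts, which was 0.565 CPM in the deepest library (control replicate 2) and 1.54 CPM in the shallowest (control replicate 1). This limit covers counting error only, and it would be too low if each fragment entered as 2 counts. MAGEA4 lies at 151912509 to 151925170 on chromosome X.

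Among the type II genes MAGED1 differed and the others were not called. MAGED1, also known as NRAGE, is an adaptor protein linked to neurotrophin receptor signalling and apoptosis. It had 251, 180.2 and 208 CPM in control replicates 1, 2 and 3 and 133, 129 and 114 CPM in resistant replicates 1, 2 and 3. The lowest control library was above the highest resistant one. Control libraries averaged 213 ± 35.6 CPM and resistant libraries 126 ± 10.3 CPM (SD, n = 3 each), 1.70-fold lower, on 2155 and 1600 counts. The log2FC was -0.75 (SE 0.11), from -0.87 without control replicate 2 to -0.62 without control replicate 1, and -0.68 without resistant replicate 3. MAGED1 (Entrez 9500) covers chromosome X from 51803007 to 51902357 on the plus strand.

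MAGED2, a relative of MAGED1 known for its role in salt handling by the kidney, had 115, 84.2 and 89.2 CPM in control replicates 1, 2 and 3 and 93.4, 81.3 and 82.7 CPM in resistant replicates 1, 2 and 3. The groups overlapped, with a log2FC of -0.15 (SE 0.13). MAGED1 gave 2.22 ± 0.103 counts per MAGED2 count in control and 1.47 ± 0.110 in resistant libraries (SD, n = 3 each), and these ranges did not overlap. MAGED2 (Entrez 10916) lies at 54807599 to 54816012 on the plus strand of chromosome X.

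MAGEF1 directs the ligase NSMCE1 to MMS19, a factor of iron-sulphur protein assembly, and is the 1 of the 10 genes outside the X chromosome (chromosome 3, 184710367 to 184712002, minus strand). It had 36.5, 20.3 and 23.2 CPM in control replicates 1, 2 and 3 and 25.7, 24.9 and 21.3 CPM in resistant replicates 1, 2 and 3. The groups overlapped. Its log2FC was -0.11 (SE 0.23) and turned to 0.15 without control replicate 1, the library with the highest value, so no direction is given for it. MAGEH1, a small type II gene, had 18 counts over control and 12 over resistant libraries, with 0 to 2.93 CPM in control and 0.409 to 1.88 CPM in resistant libraries, and was not tested.

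**Figure D4:**
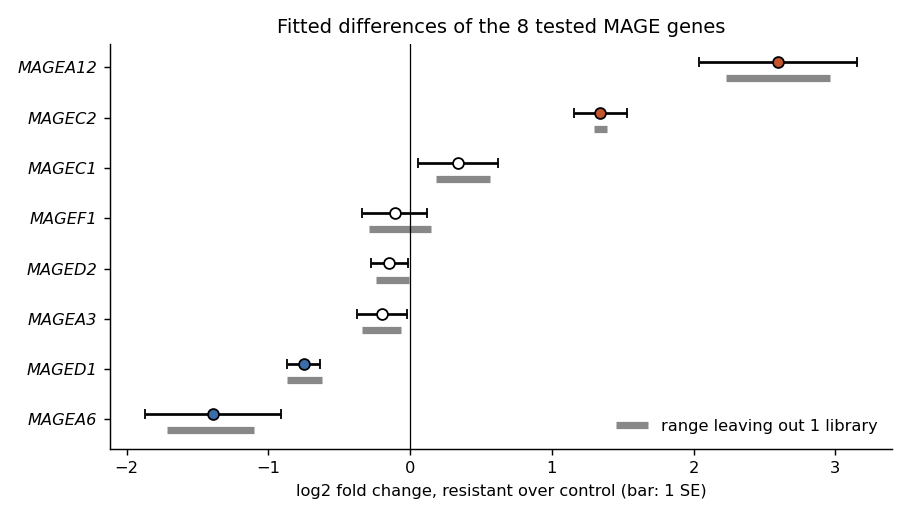
Fitted log2 fold change of resistant over control (horizontal axis) for the 8 tested MAGE genes, with 1 SE as bars and the range over fits that leave out 1 library in grey. Filled points are called, and only MAGEF1 has a grey range that crosses 0.

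Per kb of transcript, which allows levels to be compared between genes, the order in control cells was MAGED1 (74.1 ± 12.4 CPM per kb), MAGED2 (43.9 ± 7.60), MAGEA3 (25.4 ± 3.48), MAGEF1 (16.3 ± 5.28), MAGEC2 (9.71 ± 0.815), MAGEA6 (5.07 ± 0.730), MAGEC1 (3.08 ± 0.881), MAGEH1 (1.01 ± 1.003) and MAGEA12 (0.883 ± 0.564), each a mean ± SD with n = 3. Of these neighbours, the library values of MAGEH1 and MAGEA12 overlapped and those of the other pairs did not. The highest MAGEF1 library (22.31) nearly reached the lowest MAGEA3 library (22.34). The ranks of MAGEA3 and MAGEA6 are uncertain in both groups. If reads with several matches were left out of the counts, which is not known, both levels are too low. If such reads were counted for each matching gene, both levels may be too high. In resistant cells MAGEC2 (24.9 ± 1.52 CPM per kb) was the third, beside MAGEA3 (21.9 ± 4.30), and MAGEA12 (5.02 ± 0.498) was the sixth, beside MAGEC1 (4.04 ± 0.818). Both of these pairs overlapped, as did MAGED1 (43.7 ± 3.57) with MAGED2 (39.2 ± 3.02). MAGED1 and MAGED2 together held 66.7 to 71.3% of all MAGE counts in control and 55.5 to 57.4% in resistant libraries. The MAGEA and MAGEC genes together had 90.4 to 94.1 CPM in control and 111 to 135 CPM in resistant libraries. The MAGEA genes alone overlapped, with 53.9 to 67.4 CPM in control and 42.8 to 63.6 CPM in resistant libraries. MAGEC2 alone had means of 19.3 CPM in control and 49.6 CPM in resistant libraries.

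The table held 27 further MAGE family genes. Of these, 11 had 0 counts in all libraries, among them MAGEA2, MAGEA9 and MAGEL2, and 9 had 1 to 9 counts in all. NSMCE3, a MAGE protein that is a fixed subunit of the SMC5/6 genome maintenance complex, was the only one tested. Control libraries averaged 14.2 ± 0.707 CPM and resistant ones 15.2 ± 2.59 CPM (SD, n = 3 each), and the log2FC of 0.10 (SE 0.28, adjusted p = 0.839, edgeR) was not called. The others with at least 10 counts were not tested. MAGEA11, a coregulator of the androgen receptor, had 2, 14 and 4 counts in control replicates 1, 2 and 3 and 2, 0 and 0 in resistant replicates 1, 2 and 3. MAGEC3 had 0 counts in every control library and 2, 0 and 8 counts in resistant replicates 1, 2 and 3. MAGEA1 had 14 counts in each group, MAGEB2 had 16 in control and 20 in resistant libraries, MAGEE1 had 4 and 6, and TRO had 6 and 6. Of these 27 genes, 20 thus had fewer than 10 counts over the 6 libraries.

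Cancer-testis genes outside the MAGE family were taken from a list of 98, of which 85 were in the table, 35 were at 0 throughout and 9 were tested. Of the 9, 3 were called higher and 2 lower, beside 11.7% higher and 12.3% lower over all tested genes. The median log2FC of the 9 was 0.85, and that of all tested genes -0.01. That median leans on a single family, since SPANXA1, SPANXA2, SPANXB1, SPANXC and SPANXD are among the 9. The rest were DDX43 (0.85) and ACTL8 (0.82), not called, and CABYR and IL13RA2, called lower. The summed level of the 85 genes overlapped, at 105 to 164 CPM in control and 125 to 153 CPM in resistant libraries. The genes called higher were SPANXB1, SPANXD and SPANXC, sperm protein genes of the X chromosome that resemble each other closely enough to share reads. SPANXB1 rose from 6.07 ± 2.64 to 34.2 ± 6.82 CPM (SD, n = 3 each; log2FC 2.37, SE 0.28, adjusted p = 1.48e-08 in edgeR). SPANXC, named after its values were seen to complete the 5 called genes, rested on single libraries. Its log2FC was 1.30 (adjusted p = 0.024 in edgeR), and the call ended on leaving out either control replicate 1 (0.0928) or 2 (0.0673), or resistant replicate 1 (0.214). The decoy cytokine receptor IL13RA2 fell from 66.6 ± 11.4 to 27.7 ± 2.78 CPM (log2FC -1.28, SE 0.17, adjusted p = 1.81e-07 in edgeR), and the sperm flagellum protein gene CABYR fell from 32.1 ± 10.2 to 16.7 ± 2.21 CPM (log2FC -0.96, SE 0.23, adjusted p = 0.00177 in edgeR; 0.0601 without control replicate 3).

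The ligases that MAGE proteins bind, and their targets, were called in both directions. Of 13 tested genes on this list of 17, 3 were called higher, 2 lower and 8 were not called, beside 24.1% of all tested genes called in either direction. TRIM28, the partner of MAGEC2, MAGEA3 and MAGEA6, had a log2FC of 0.18 (adjusted p = 0.206 in edgeR), and PRKAA1, the AMPK subunit, one of -0.01 (adjusted p = 0.958); both, like MMS19 and DNMT1 below, are named for their roles and after their values were seen. RAD18, the partner of MAGEA4, rose from 91.0 ± 3.43 to 133 ± 16.1 CPM (SD, n = 3 each; log2FC 0.54, SE 0.12, adjusted p = 0.000715 in edgeR). VPS35, of the retromer sorting complex, rose from 229.6 ± 3.53 to 306 ± 7.42 CPM (log2FC 0.41, adjusted p = 0.00106). XIAP, the inhibitor of apoptosis that MAGED1 binds, fell from 159 ± 9.71 to 115 ± 7.79 CPM (log2FC -0.46, SE 0.11, adjusted p = 0.00176 in edgeR), and TRIM27, a ligase partner of MAGEL2, fell from 106 ± 6.03 to 76.0 ± 6.13 CPM (log2FC -0.48, SE 0.13, adjusted p = 0.00395 in edgeR). MMS19, the MAGEF1 target, was also called higher (log2FC 0.43, adjusted p = 0.0242 in edgeR). Leaving out control replicate 2 (0.0891) or 3 (0.0934) ended the MMS19 call, as did leaving out resistant replicate 1 (0.0653) or 3 (0.0903).

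Of the other SMC5/6 complex genes 8 of 8 were tested. SLF2, a factor that recruits the complex to damaged DNA, rose from 24.5 ± 1.77 to 48.9 ± 5.01 CPM (SD, n = 3 each; log2FC 0.99, SE 0.18, adjusted p = 5.74e-05 in edgeR). SMC6, a core subunit, had a log2FC of -0.45 with an adjusted p of 0.0313 in edgeR, lost without control replicate 1 (0.0529), 2 (0.116) or 3 (0.0597), without resistant replicate 1 (0.108) or 2 (0.104), and without a filter on low counts (0.057). The other 6 genes were not called, so that 2 of 8 were called beside 24.1% of all tested genes.

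Among 20 tested genes of DNA methylation and chromatin silencing, 2 were called higher, 5 lower and 13 were not called, a share of calls of 7 in 20 beside 24.1% of all tested genes. DNMT3B, a de novo DNA methyltransferase, had 61.7, 50.8 and 45.2 CPM in control replicates 1, 2 and 3 and 19.5, 18.3 and 17.4 CPM in resistant replicates 1, 2 and 3. The groups were well apart, and DNMT3B fell by 1.502 on the log2 scale (SE 0.19, adjusted p = 8.87e-08 in edgeR). The maintenance enzyme DNMT1 had a log2FC of 0.07 (adjusted p = 0.709 in edgeR), and UHRF1, which brings DNMT1 to replicated DNA, rose by 0.57 (SE 0.16, adjusted p = 0.00806 in edgeR; 0.0515 without resistant replicate 3). The chromatin remodeller ATRX (log2FC -0.35, adjusted p = 0.00562 in edgeR; 0.0512 without resistant replicate 1) and the DNA demethylating enzyme TET2 (log2FC -0.85, adjusted p = 0.00701 in edgeR) were lower. The TET2 call was lost without control replicate 3 (0.0602) or resistant replicate 2 (0.0569). Whether these levels bear on the MAGE genes was not tested.

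**Figure D5:**
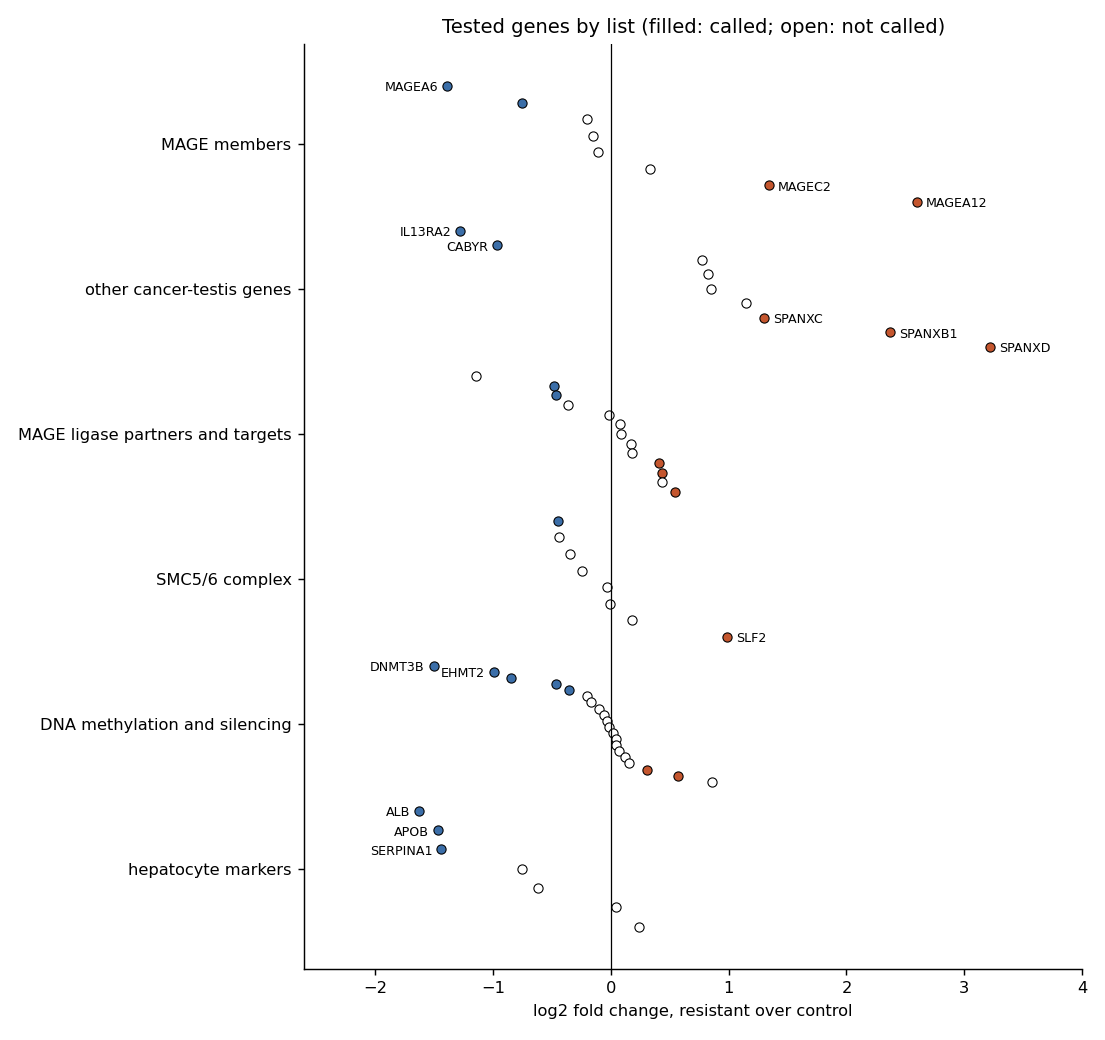
Log2 fold change of resistant over control (horizontal axis) for each tested gene of 6 lists (rows). Filled points are called in edgeR (orange higher, blue lower), open points are not; MAGEA12 and MAGEC2 stand at 2.60 and 1.34 and DNMT3B at -1.502.

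The nearest tested genes on either side of the MAGE clusters were called in both directions, and many of them lie far away. On one side of the MAGEA3, MAGEA12 and MAGEA6 cluster, CETN2 (57.2 kb away, log2FC 0.11, adjusted p = 0.725 in edgeR) and NSDHL (61.2 kb) were not called, and ZNF185 (144.7 kb) was higher (log2FC 1.30, adjusted p = 0.00256 in edgeR). On the other side the nearest tested gene was the chloride channel subunit gene GABRE, 724 kb away, which was lower (log2FC -1.23, SE 0.13, adjusted p = 1.79e-09 in edgeR). Farther out, VMA21 (1289 kb) was higher (log2FC 0.38, adjusted p = 0.00303 in edgeR) and HMGB3 (1708 kb) was not called. For MAGEC1 and MAGEC2 the nearest was SPANXD, 205 kb away, which was higher (log2FC 3.22, SE 0.66, adjusted p = 0.000266 in edgeR). The SPANXD value rests on 9 control counts against 97 resistant counts, and SPANX genes can share reads. SPANXA2 (313 kb) and SPANXA1 (319 kb) were not called. On the other side of MAGEC1 and MAGEC2 the first tested genes were several megabases off. FMR1 (5707 kb) and CXorf40A (7335 kb) were not called, and IDS (7272 kb) was higher (log2FC 0.52, adjusted p = 5.74e-05 in edgeR). Over the X chromosome 63 of 364 tested genes were called higher and 53 lower, with a median log2FC of -0.02, beside 11.7% higher and 12.3% lower over all tested genes. Whether the X chromosome differs from the rest was not tested.

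The genes whose levels ran most like those of 4 MAGE genes over the 6 libraries are given as a description, since 6 libraries in 2 groups give many high correlations. By Pearson r of log2 CPM they were POLR3A (0.999) and NOLC1 (0.998) for MAGEC2, C12orf60 (0.997) and GRINA (0.996) for MAGEA12, PIDD1 (0.990) and LAMTOR2 (0.990) for MAGEA6, and ZNF816 (0.994) and ZNF652 (0.988) for MAGED2. As many as 402 genes had an r above 0.95 with MAGEC2, and 119, 104 and 25 with MAGEA12, MAGEA6 and MAGED2.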

How the data were processed

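RNA of 3 control and 3 resistant MHCC97H libraries was compared. Reads were processed with tools that include HISAT2, Bowtie2 and Trimmomatic, per the submitters' processing notes; the sources used here do not give the read counter, build, annotation or use of strand. The authors deposited whole-number counts per gene symbol, not normalized (19202 genes); 27 symbols turned into dates were renamed by Entrez ID. Most counts were even; if each fragment entered as 2 counts, floors would be too low. Pairs of replicates differed by more than sampling noise (chi-square over its degrees of freedom 1.78 to 2.86, with counts halved), so all 6 libraries were kept as separate samples.

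Genes passing filterByExpr (10804) were scaled by TMM and tested with edgeR 4.0.16 (quasi-likelihood, group only, R 4.3.3), with Benjamini-Hochberg adjustment over all tested genes and calls at 0.05. The SE is the log2FC over the square root of F. The script was tested on simulated data. Other settings tried were a replicate block, summed MAGEA genes, halved counts, 2 other filters, 3 other scalings (upper-quartile, RLE, none beyond library total), limma-voom (limma 3.58.1), DESeq2 1.42.0, a threshold of 0.01, and fits without 1 library. The genes and lists were chosen with earlier results of these data known. Named were the 10 genes; other MAGE genes with at least 10 counts; up to 4 called genes of each other list by p; the 2 most alike genes of MAGEA6, MAGEA12, MAGEC2 and MAGED2; and up to 3 tested neighbours on either side of both clusters. Transcripts were from GENCODE 29 (the transcript with the longest coding sequence) and promoters from RefSeq (GRCh38.p14). Sequences were aligned with Biopython 1.88 in Python 3.11.15, and figures drawn with matplotlib 3.10.9.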

Additional observations from a re-analysis of the deposited data

How the results depend on the processing

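MAGEC2, MAGEA12 and MAGED1 kept their calls and directions in every alternative run that kept them as separate genes, over log2FC of 1.30 to 1.39, 2.23 to 2.96 and -0.87 to -0.62. The count of MAGE genes called higher was 2 throughout except with the MAGEA genes summed (1). The count called lower was 2 except with the MAGEA genes summed (1), at an adjusted p of 0.01 (1) and on leaving out libraries, where it was 1 to 2, since MAGEA6 lost its call in 5 of 6 such fits. With the MAGEA genes summed, MAGEA6 and MAGEA12 are no longer tested singly, which by construction accounts for those lower counts. Over all genes 800 were higher and 851 lower at an adjusted p of 0.01, against 1269 and 1332. The median log2FC of all genes lay between -0.04 and 0.01 in all settings. With a replicate block 1248 genes were higher and 1270 lower, and 2 MAGE genes in each direction; deviations of same-numbered libraries correlated at -0.02 to 0.03 and 2 of 6 libraries correlated best with their own number, so the numbers were not taken to pair the libraries. Depth limits MAGEA4, MAGEH1 and most of the wider family.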
